A study of Mus musculus with 11 samples.

Results

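The transcription factors that drive the epithelial-mesenchymal transition (EMT) were followed through 11 total RNA sequencing libraries of a murine model of melanoma progression. The members are the 8 genes Snai1, Snai2, Twist1, Twist2, Zeb1, Zeb2, Prrx1 and Prrx2, and 7 of them have a row among the 14272 genes of the deposited tables, of which 14248 carry a symbol. Prrx1 is not analysed here. Melan-a is a spontaneously immortalized, nonmalignant melanocyte line syngeneic to C57Bl/6 mice, and 2 libraries of it were used (replicates 2 and 3). The lines 4C (pre-malignant, mesenchymal-like), 4C11- (mesenchymal-like melanoma that does not metastasize) and 4C11+ (metastatic melanoma) were derived from melan-a by repeated cycles in which the cells were kept from attaching, and 3 libraries of each were used. Melan-a and 4C11+ grow with an epithelial morphology. Melan-a was grown with 200 nM PMA (phorbol 12-myristate 13-acetate) and the derived lines without it, so an effect of PMA and the difference between melan-a and the other lines cannot be told apart. Each state is represented by a line, and the libraries of a line are separate cultures according to the labels, so the spread between libraries is that between cultures of the same line.

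EMT factors are DNA-binding proteins that switch off genes of cell-cell adhesion and switch on genes of the extracellular matrix and of migration. Snai1 and Snai2 are zinc finger repressors that bind E-boxes such as CAGGTG, Zeb1 and Zeb2 are larger proteins with a cluster of zinc fingers at each end that bind the same kind of site, Twist1 and Twist2 are basic helix-loop-helix proteins that bind DNA as dimers with E proteins, and Prrx1 and Prrx2 are paired-related homeodomain proteins of embryonic mesenchyme. In the melanocyte lineage Snai2 and Zeb2 are part of the normal programme of melanoblasts and melanocytes, and melanomas are known for exchanging them for Zeb1 and Twist1.

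Values are log2 CPM (the reads of a gene scaled to the size of its library) as deposited, and look as if quantile normalized besides. At the low end, a library takes only certain values, a step for each whole number of reads, from which the read number of a gene was read up to a limit between 341 and 413 reads, and numbers above the limit are given as at least that many. A gene with 3 reads or fewer in every library of a line was treated as not detected there, and its difference is then given as a bound computed from the value of 3 reads in each library. The depth estimated from the step of 40 reads, as if values followed library size alone, was between 3500000 and 7420000 reads per library. It is only a rough figure. The libraries 4C replicate 1 and 4C11- replicate 2 share the value of 0 reads (-3.44) but not that of 3 reads (-1.01 and -2.01), so other steps give other depths. The library 4C11- replicate 1 stood apart, with a correlation over genes of 0.888 and 0.924 with the others of its line. The melan-a libraries correlated at 0.907, and 473 genes differed between them by more than 3 on the log2 scale.

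Snai1, Twist1, Twist2 and Prrx2 had reads in every library of 4C and 4C11-, and at most 1 read in any library of melan-a and 4C11+. The authors kept genes that reached 1 CPM in at least 4 libraries, and these genes reached it only in 4C and 4C11-, so they had to differ between the lines to be in the tables. Their number among the 7 is therefore a description and lends no support of its own.

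Snai1 (chr2:167538195-167542814, plus strand, 3 exons), the best known repressor of the E-cadherin gene, lay at log2 CPM 4.36, 4.95 and 4.42 in the 4C libraries (149, 203 and 111 reads) and at 5.99, 5.16 and 5.13 in the 4C11- libraries (268, 249 and 215 reads). In melan-a it had 0 and 1 reads, and in 4C11+ 0, 1 and 0. All 6 mesenchymal-like libraries were far above all 5 epithelial ones. The mean of 4C and 4C11- exceeded that of melan-a and 4C11+ by at least 5.19 on the log2 scale (at least 36.4-fold, adjusted p = 2.87e-07).

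Twist1 (chr12:33957671-33959829, plus strand, 2 exons), a basic helix-loop-helix factor of cranial mesenchyme, had few reads in 4C, at log2 CPM 1.90, 1.46 and 0.91 (23, 20 and 11 reads). In 4C11- it lay at 3.51, 3.29 and 2.83 (50, 72 and 46 reads). It had 0 and 1 reads in melan-a and none in the 3 libraries of 4C11+. The 4C11- libraries were all above the 4C libraries. The difference between mesenchymal-like and epithelial lines was at least 2.50 (at least 5.67-fold, adjusted p = 4.55e-06).

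Twist2 (chr1:91801461-91848028, plus strand), its close paralog, lay at log2 CPM 4.59, 4.22 and 4.52 in 4C (176, 126 and 118 reads) and at 5.17, 4.87 and 4.89 in 4C11- (147, 207 and 182 reads). No read was counted for it in the 5 libraries of melan-a and 4C11+. The difference was at least 4.89 (at least 29.8-fold, adjusted p = 6.26e-09). Twist2 shares 1477 exonic bases with Gm29100, a gene annotated on the opposite strand, which followed the same pattern with 52, 54 and 35 reads in 4C, 57, 50 and 49 in 4C11-, 1 and 0 in melan-a and 0 in 4C11+. The libraries were stranded, but whether strand was used in counting is not given in the sources used here, and without it reads of the pair cannot be told apart.

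Prrx2 (chr2:30834972-30881251, plus strand), the homeodomain factor, lay at log2 CPM 5.86, 5.35 and 5.27 in 4C (at least 439, then 266 and 191 reads) and at 5.33, 5.11 and 4.68 in 4C11- (166, 241 and 158 reads). It had 1 and 0 reads in melan-a and none in 4C11+. Its difference of at least 5.45 (at least 43.8-fold, adjusted p = 6.04e-09) is the largest bound among these 4 genes.

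The proximal promoters of these 4 genes are shown because the genes moved together across the lines. Each window runs from 250 bases before to 50 bases after the RefSeq transcript start, on GRCm38.p6, all on the plus strand. Snai1 is at chr2:167537945-167538244, Twist1 at chr12:33957421-33957720, Twist2 at chr1:91801211-91801510 and Prrx2 at chr2:30845117-30845416, the last being an internal start of the gene as annotated by Ensembl. Capitals mark matches, on either strand, to the searched motifs, which were the Snail and Zeb type E-box CAGGTG, every other E-box CANNTG, the homeodomain core TAATTA, the TATA box TATAAA and the GC box GGGCGG.
Snai1: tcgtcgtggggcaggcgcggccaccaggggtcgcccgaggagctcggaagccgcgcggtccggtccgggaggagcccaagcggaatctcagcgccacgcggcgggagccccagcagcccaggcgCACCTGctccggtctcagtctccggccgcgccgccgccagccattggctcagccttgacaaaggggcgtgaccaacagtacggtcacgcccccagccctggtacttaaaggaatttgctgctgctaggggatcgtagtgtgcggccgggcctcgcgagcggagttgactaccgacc
Twist1: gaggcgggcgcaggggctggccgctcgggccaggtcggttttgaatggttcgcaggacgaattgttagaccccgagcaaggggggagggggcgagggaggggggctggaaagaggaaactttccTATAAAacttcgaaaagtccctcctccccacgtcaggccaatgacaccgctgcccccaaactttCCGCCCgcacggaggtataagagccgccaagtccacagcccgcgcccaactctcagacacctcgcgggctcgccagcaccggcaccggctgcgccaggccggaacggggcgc
Twist2: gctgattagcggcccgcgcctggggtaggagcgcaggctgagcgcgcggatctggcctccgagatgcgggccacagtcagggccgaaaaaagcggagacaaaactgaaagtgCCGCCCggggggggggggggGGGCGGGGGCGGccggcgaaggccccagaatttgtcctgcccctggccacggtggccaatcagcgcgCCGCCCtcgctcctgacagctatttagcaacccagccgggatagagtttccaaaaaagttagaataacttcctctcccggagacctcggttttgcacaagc
Prrx2: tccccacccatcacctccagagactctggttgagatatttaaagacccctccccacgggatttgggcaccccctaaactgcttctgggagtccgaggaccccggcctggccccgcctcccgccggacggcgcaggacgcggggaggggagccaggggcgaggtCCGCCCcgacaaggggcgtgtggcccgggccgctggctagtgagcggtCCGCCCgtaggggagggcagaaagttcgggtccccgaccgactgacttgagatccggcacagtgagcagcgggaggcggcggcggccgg
CAGGTG, read as CACCTG on the plus strand, occurs once in the Snai1 window, 126 bases before the start, and in none of the other 3 windows. Of 32851 promoter windows of the same length, 20.2% hold it. None of the 4 windows holds another E-box, which 65.5% of all windows do, and none holds TAATTA, which 5.29% do. TATAAA occurs in the Twist1 window, 126 bases before the start (13.6% of all windows). GGGCGG occurs 1 time in the window of Twist1, 4 times in that of Twist2 and 2 times in that of Prrx2 (35.7% of all windows hold it). The GC content was 70% for Snai1, 66% for Twist1, 64.7% for Twist2 and 70.3% for Prrx2, against a median of 52.7% over all windows. The letters that these 4 windows have in common are thus a high GC content and no motif of the 5.

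**Figure D1:**
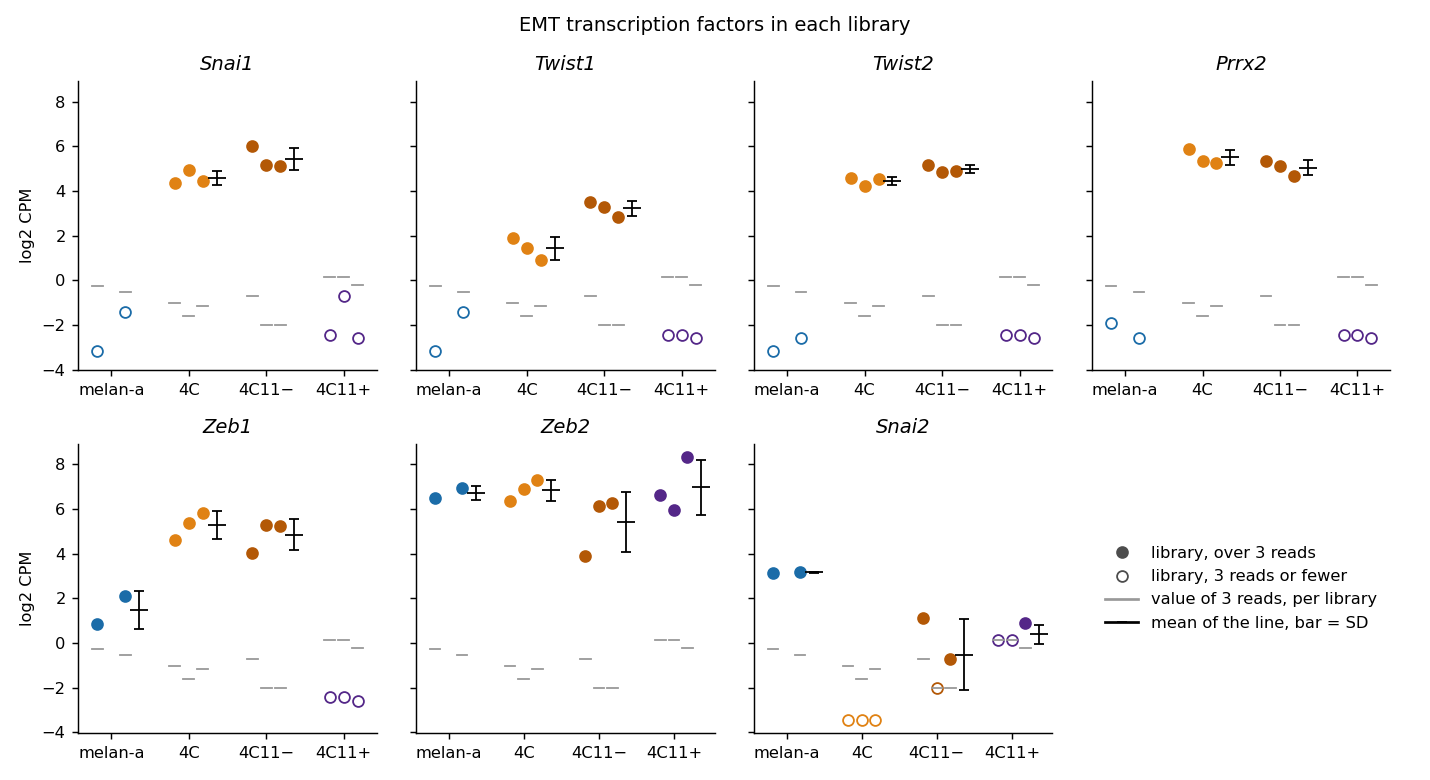
Log2 CPM of each factor (vertical axis) in each library of the 4 lines (horizontal axis), with open points for libraries at 3 reads or fewer, grey ticks for the value of 3 reads in that library, and the mean and SD of a line in black where any of its libraries is over 3 reads. Snai1, Twist1, Twist2 and Prrx2 are open in melan-a and 4C11+ and filled in 4C and 4C11-, Zeb1 is open only in 4C11+, Zeb2 is filled in every library, and Snai2 is highest in melan-a and open in all of 4C.

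Zeb1 and Zeb2, encoded on chromosomes 18 and 2, did not move together. Zeb1 lay at log2 CPM 0.87 and 2.09 in melan-a (7 and 23 reads), at 4.59, 5.37 and 5.83 in 4C (176, 268 and 273 reads) and at 4.04, 5.26 and 5.23 in 4C11- (70, 265 and 230 reads). In 4C11+ it had 0 reads in each of the 3 libraries. The groups do not overlap, and melan-a is the only epithelial line in which Zeb1 was detected. The mesenchymal-like lines were 5.56 ± 0.36 (SE) above the epithelial ones (adjusted p = 3.71e-07), and at least 4.30 (at least 19.7-fold) with 4C11+ set to 3 reads.

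Zeb2 (chr2:44983632-45117395, minus strand) was detected in all 11 libraries, with log2 CPM 6.51 and 6.94 in melan-a and 6.60, 5.96 and 8.33 in 4C11+. The mesenchymal-like libraries were at 6.35, 6.88 and 7.29 for 4C and at 3.88, 6.12 and 6.27 for 4C11-. The lines overlap, except that the 4C11- libraries were below all those of melan-a and 4C. Its mean was 0.71 lower in the mesenchymal-like lines, with a 95% interval from 1.80 lower to 0.38 higher, and did not pass the test (adjusted p = 0.324). The interval leaves room for a decrease of more than 1 on the log2 scale. Zeb2 shares 653 exonic bases with Zeb2os and Zeb1 shares 198 with Gm10125, both on the opposite strand. Gm10125 had at most 10 reads in any library.

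Within a line, the Zeb genes moved with the genes of long transcripts. For each library, the deviation of every gene from the other libraries of the line was taken, and the median over 2353 genes with a transcript over 5 kb was compared with that over 1737 genes under 2 kb. In 4C11- replicate 1 the long transcripts lay 0.24 lower and the short ones 0.42 higher on the log2 scale, and Zeb2 lay 2.32 and Zeb1 1.20 lower. In 4C11+ replicate 3 the long transcripts lay 0.27 higher and the short ones 0.27 lower, and Zeb2 lay 2.05 higher. The deviation of Zeb2 had the sign of the long transcripts in 11 of 11 libraries and that of Zeb1 in 8 of the 8 libraries of the lines where it was detected. The melan-a libraries are mirror images of each other by construction. In every line the deviations of a gene cancel out, so the libraries of a line are not independent here. How often other genes had these signs was not counted. The longest transcripts are 9124 bases for Zeb2 and 5801 for Zeb1, and 1441 to 2525 bases for the other members with a row. The part of transcript length in the Zeb values was not tested. In a further fit, the deviations of each library from its line mean were centred within 20 bins of transcript length. Zeb2 was then 0.72 lower in the mesenchymal-like than in the epithelial lines (adjusted p = 0.163) and Zeb1 5.54 higher (adjusted p = 3.48e-07). This centring removes scatter within a line and leaves the line means nearly unchanged. It therefore cannot show whether length has a part in the differences between lines, and its p-values do not count the removed scatter.

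**Figure D2:**
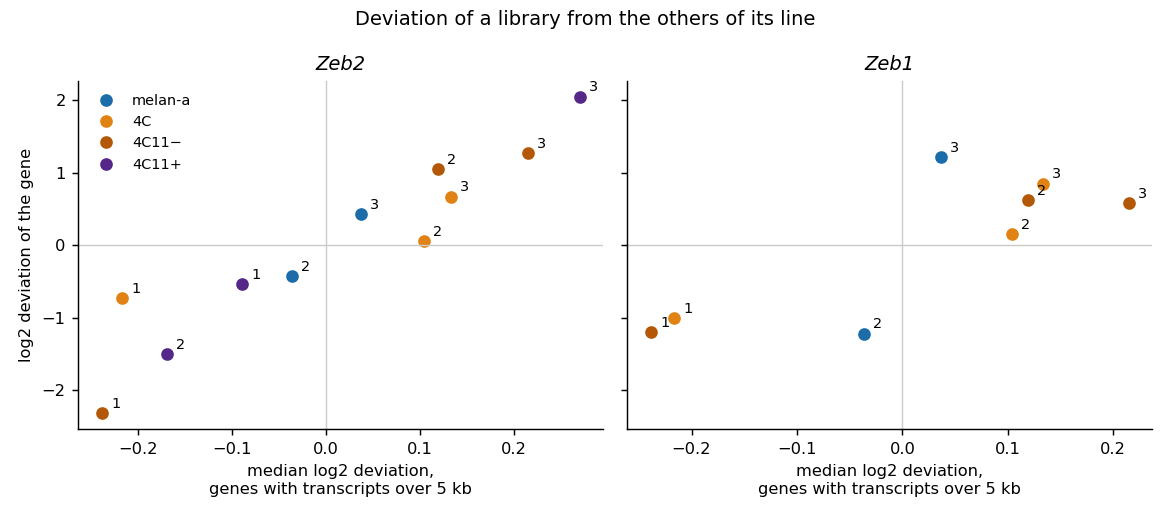
Deviation of Zeb2 (left) and Zeb1 (right) in each library from the other libraries of its line (vertical axis, log2), against the median deviation of genes with transcripts over 5 kb (horizontal axis, log2), with replicate numbers beside the points and 4C11+ left out for Zeb1, where it had 0 reads. The points run from 4C11- replicate 1, at -0.24 and -2.32 for Zeb2, to 4C11+ replicate 3, at 0.27 and 2.05.

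Snai2 (chr16:14705852-14709385, plus strand, 3 exons), a repressor that melanocytes need for their migration and survival, had its highest values in melan-a, at log2 CPM 3.13 and 3.18 (31 and 54 reads). In 4C it had 0 reads in each library. In 4C11- it had 11, 3 and 6 reads (log2 CPM 1.13, -2.01 and -0.70) and in 4C11+ 3, 3 and 8 reads (0.15, 0.15 and 0.88). Melan-a was above every other library, and the 4C11- and 4C11+ libraries overlapped. The mean over 4C and 4C11- was 3.76 ± 0.54 (SE) below that over melan-a and 4C11+ (adjusted p = 0.00024), or 2.67 below with 4C set to 3 reads, and the libraries of the groups overlap.

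In the comparison of mesenchymal-like with epithelial lines, 5 of the 7 factors with a row were higher, 1 (Snai2) was lower and Zeb2 did not pass the test, while 14.3% of all genes tested were called higher and 15.3% lower, 29.7% in all. The libraries of the groups did not overlap, with the mesenchymal-like ones higher, for 5 of 7, against 6.82% of all genes. Of these 5, Snai1, Twist1, Twist2 and Prrx2 had to differ between the lines to have a row. Both counts are therefore descriptions and lend no support of their own. The same holds for the counts below that compare 4C or 4C11- with melan-a or 4C11+. The count of factors called was 6 also without melan-a replicate 2 and 4C11- replicate 1.

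Along the progression, the factors changed between melan-a and 4C and again between 4C11- and 4C11+. In 4C against melan-a, 6 of the 7 were called (15.2% of all genes): Snai1 was at least 4.97 higher (31.4-fold), Twist1 at least 1.82 (3.53-fold), Twist2 at least 4.84 (28.6-fold), Prrx2 at least 5.89 (59.3-fold), Zeb1 was 3.79 ± 0.54 (SE) higher (3.18 to 4.40 with a library left out), and Snai2 was at least 4.42 lower. Adjusted p-values were between 3.51e-07 for Prrx2 and 0.0015 for Twist1. Zeb2 differed by 0.12 ± 0.74 (SE).

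In 4C11- against 4C, limma called 0 of the 7 (1.67% of all genes), and 2, Snai2 and Twist1, had an unadjusted p under 0.05. Twist1 was 1.79 ± 0.55 (SE) higher in 4C11- (3.45-fold, 95% interval 0.58 to 2.99, adjusted p = 0.152). With every value raised to that of 3 reads it passed the test (adjusted p = 0.0371). Snai2 was higher by at least 0.73, a bound that includes a library at 3 reads (adjusted p = 0.0716, and 0.0363 without 4C11- replicate 2). Zeb2 was 1.42 ± 0.66 (SE) lower in 4C11- (adjusted p = 0.386), and 0.64 lower without 4C11- replicate 1. Snai1 was 0.85 and Twist2 0.53 higher, and Prrx2 0.45 and Zeb1 0.42 lower, all with intervals that include 0. The libraries of the lines did not overlap for 5 of the 7 factors, against 19.3% of all genes.

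In 4C11+ against 4C11-, 5 of the 7 were called, all lower in the metastatic line (31.1% of all genes). Snai1 was at least 5.40 lower on the log2 scale, Twist1 at least 3.19, Twist2 at least 4.95, Zeb1 at least 4.82 and Prrx2 at least 5.02. Snai2 was 0.92 ± 0.72 (SE) higher (adjusted p = 0.358), and 1.75 higher without 4C11- replicate 1 (adjusted p = 0.0436). Zeb2 was 1.54 ± 0.66 (SE) higher in 4C11+ (adjusted p = 0.101). Its difference was 0.76 without 4C11- replicate 1 and 0.86 without 4C11+ replicate 3. With deviations from the line mean centred within bins of transcript length it was 1.55 (adjusted p = 0.0307). That centring removes scatter within lines before the fit without counting it, so this p-value is not taken as a call.

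In 4C11+ against 4C, 6 of the 7 were called (31.7% of all genes). Snai1, Twist1, Twist2, Zeb1 and Prrx2 were lower by at least 4.55, 1.40, 4.42, 5.24 and 5.47. Snai2 was higher by at least 1.66 (3.15-fold, adjusted p = 0.00174), and did not pass the test with values raised to that of 3 reads (adjusted p = 0.0742). In 4C11- against melan-a, 6 of the 7 were called (13.6% of all genes), with Snai1, Twist1, Twist2 and Prrx2 higher by at least 5.82, 3.61, 5.37 and 5.44, Zeb1 higher by 3.37 ± 0.54 (SE) and Snai2 lower by 3.68 ± 0.80 (SE). With a library left out the difference of Zeb1 was 2.76 to 3.98 and that of Snai2 -4.51 (without 4C11- replicate 1) to -2.94 (without 4C11- replicate 2), and with the compared lines alone Snai2 did not pass the test (adjusted p = 0.0877). Comparisons that share a line share its libraries.

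The 2 epithelial lines differed in 2 of the 7 factors (15.9% of all genes), and 4 were at the floor in both lines, so that no fold is given for Snai1, Twist1, Twist2 and Prrx2. Zeb1 was lower in 4C11+ than in melan-a by at least 1.45 (at least 2.74-fold, adjusted p = 0.000603), and did not pass the test with values raised to that of 3 reads (adjusted p = 0.0871). Snai2 was lower by 2.76 ± 0.80 (SE, adjusted p = 0.0373). That call was lost when any of melan-a replicate 2 (adjusted p = 0.15), melan-a replicate 3 (0.104), 4C replicate 2 (0.0539), 4C11+ replicate 1 (0.114) or 4C11+ replicate 2 (0.114) was left out. Zeb2 was 0.24 ± 0.74 (SE) higher in 4C11+.

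**Figure D3:**
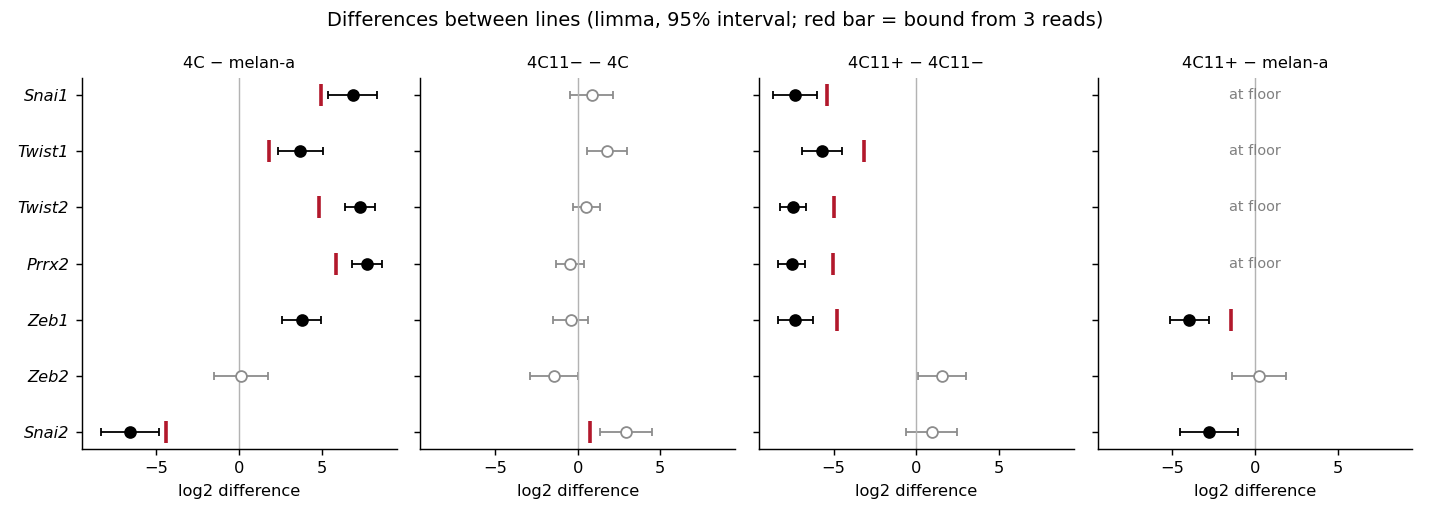
Log2 difference of each factor (horizontal axis) in 4 of the comparisons between lines, with the 95% interval of the limma fit, filled points for an adjusted p under 0.05, red bars for the bound from 3 reads, and "at floor" where neither line has a library over 3 reads. Snai1, Twist1, Twist2, Prrx2 and Zeb1 lie to the right of 0 in 4C against melan-a and to the left in 4C11+ against 4C11-, with bounds between -3.19 and -5.40 in the latter.

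Levels of different genes were compared per kilobase of the longest annotated transcript. In 4C the order on this log2 scale was Prrx2 (4.97), Snai1 (3.88), Zeb2 (3.65), Twist2 (3.11), Zeb1 (2.73) and Twist1 (0.72), and Snai1 and Zeb2 differed by less than the SD of either over libraries. Twist2 and Zeb1 differed by less than the SD of Zeb1 (0.625) but more than that of Twist2 (0.197). In 4C11- it was Snai1 (4.73), Prrx2 (4.51), Twist2 (3.64), Twist1 (2.51), Zeb1 (2.30) and Zeb2 (2.23), and neither the first 2 nor the last 3 differed from their neighbours by more than the SD. Zeb2 led in melan-a (3.53), ahead of Snai2 (2.14) and Zeb1 (-1.06). Zeb2 also led in 4C11+ (3.77), where Snai2 (-0.62) was the only other factor over 3 reads in any library.

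Differences between 2 factors within the same library removed what the library shares. A constant scaling to transcript length cancels when such a difference is compared between libraries. A length effect that varies between libraries and between the 2 genes does not cancel. In 4C11- replicate 1, Zeb2 lay 2.32 and Zeb1 1.20 below the other libraries of the line. Zeb1 minus Zeb2, in log2 CPM, was -1.58 ± 0.16 in 4C and -0.58 ± 0.65 in 4C11-, against -9.45 ± 1.31 in 4C11+ (SD, n = 3 each) and -5.25 ± 0.56 in melan-a (SD, n = 2). In 4C11- replicate 1 it was 0.16, against -0.87 and -1.04 in the others of the line. Twist1 minus Snai2 was 4.86 ± 0.50 in 4C and 3.74 ± 1.47 in 4C11-, against -2.89 ± 0.51 in 4C11+ and -5.44 ± 1.19 in melan-a. Both were higher in every mesenchymal-like library than in every epithelial one. Values of genes at 0 reads, among them Zeb1 and Twist1 in 4C11+ and Snai2 in 4C, enter these differences as deposited, so their sizes there depend on the value that 0 reads has in each library.

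**Figure D4:**
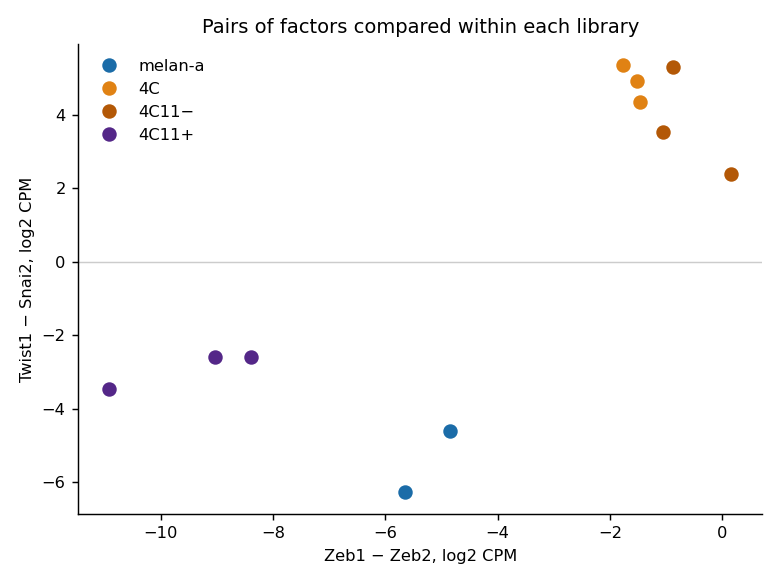
Twist1 minus Snai2 (vertical axis, log2 CPM) against Zeb1 minus Zeb2 (horizontal axis, log2 CPM) in each of the 11 libraries, coloured by line. The 4C and 4C11- libraries lie at the upper right, with Twist1 minus Snai2 from 2.38 to 5.34, and the melan-a and 4C11+ libraries lie at the lower left.

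Over the 11 libraries the correlation between factors was highest for Twist2 with Prrx2 (r = 0.99) and Snai1 with Twist2 (r = 0.987). Snai2 was negatively correlated with each of the other 6 (r from -0.747 with Prrx2 to -0.104 with Zeb2). These values are descriptions over libraries that share lines, and mostly reflect 2 levels. Among genes with a mean log2 CPM of at least 1, the closest in pattern were Bdkrb2, a bradykinin receptor, for Snai1 (r = 0.997), Rcn3 (r = 0.992) and Epn3 (r = 0.989). For Twist2 they were Il1rl2, an interleukin receptor (r = 0.999), Epn3 and Nkd1, a Wnt pathway inhibitor. For Prrx2 they were Cebpa, the C/EBP alpha transcription factor (r = 0.999), Col1a1, the main chain of type I collagen, and Cav3. Gli2, a Hedgehog pathway factor, was with Pask and Tnfaip6 closest to Twist1 (r = 0.973, 0.974 and 0.974). Zeb1 was followed most closely by Jcad (r = 0.989), Apex2 and Rnd3, Zeb2 by Edem3 (r = 0.974), Dpp8 and Gtf2a1, and Snai2 by Hid1 (r = 0.961), Rcan3 and Celsr2.

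Among epithelial adhesion genes, which EMT factors are known to repress, those with a row were not lower as a group in the mesenchymal-like lines. Of 38 listed genes 17 have a row, 5 were higher, 2 lower and 10 did not pass the test, with a median difference of 0.56 against -0.09 for all genes. Of all genes tested, 14.3% were called higher and 15.3% lower. Krt18, a keratin of simple epithelia, had a mean log2 CPM of 9.23 ± 0.25 in 4C and 7.97 ± 0.29 in 4C11- (SD, n = 3 each), with at most 3 reads in melan-a and 1 in 4C11+, a difference of at least 8.79. Ocln, the tight junction protein occludin, was higher by at least 2.13 and Pkp1, a desmosomal plakophilin, by at least 3.66. Krt18, Ocln and Pkp1 had 3 reads or fewer in every library of melan-a and 4C11+, so they had to differ between the lines to have a row. The count and median of the list are therefore descriptions and lend no support of their own. Jup, plakoglobin, was 3.31 ± 0.39 (SE) higher with groups that overlapped. Its level was lowest in 4C11+ (mean log2 CPM 2.36, against 6.27 in melan-a), and against melan-a it was not called in 4C (adjusted p = 0.126) or 4C11- (adjusted p = 0.205).

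Cdh1, which encodes E-cadherin, was low in every line, with 10 to 19 reads in 4C11-, 5 to 9 in melan-a and 2 to 4 in both 4C and 4C11+. Between mesenchymal-like and epithelial lines it differed by -0.50 ± 0.45 (SE, adjusted p = 0.454). 4C was 2.20 ± 0.67 (SE) lower than melan-a (adjusted p = 0.0469), and 4C11- was 2.61 ± 0.60 (SE) above 4C without passing the test (adjusted p = 0.0557), both with libraries that did not overlap. Tjp3, a tight junction scaffold, was lower by at least 2.78, and likewise had to differ between the lines to have a row.

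Of 31 mesenchymal genes 26 have a row, 18 were higher in the mesenchymal-like lines, 3 lower and 5 did not pass, with a median of 2.91. Of all genes tested, 14.3% were called higher and 15.3% lower. Some genes of the list, such as Col3a1, were at the floor in both epithelial lines and had to differ between the lines to have a row. The count is therefore a description and lends no support of its own. Col1a1 had a mean log2 CPM of 10.9 in 4C and 10.6 in 4C11-, against 1.42 in melan-a and 1.76 in 4C11+. Acta2, smooth muscle actin, was higher by at least 8.90. Fn1, fibronectin, was 1.28 ± 0.34 (SE) higher (adjusted p = 0.0148), with melan-a libraries at 8.81 and 10.97 that overlap the mesenchymal-like ones, and the difference was 1.82 without melan-a replicate 2 and 0.74 without melan-a replicate 3. Col6a1 and Tnc differed widely between the melan-a libraries, from 0.22 to 7.90 and from -1.42 to 8.30.

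Cdh2, which encodes N-cadherin, went the other way and had 0 reads in all 6 libraries of 4C and 4C11-, against a mean log2 CPM of 7.84 ± 0.62 in melan-a (SD, n = 2) and 6.76 ± 0.07 in 4C11+ (SD, n = 3). It was lower by at least 8.71, and had to differ between the lines to have a row. Vim, vimentin, was high in every line and 1.14 ± 0.18 (SE) lower in the mesenchymal-like lines (adjusted p = 0.0005). Postn, periostin, was the remaining gene of the list that was lower (adjusted p = 0.015).

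All melanocyte genes with a row passed the test. Of 22 listed 20 have a row, 19 were lower in the mesenchymal-like lines and 1, Lef1, was higher, with a median of -7.26. Of all genes tested, 15.3% were called lower and 14.3% higher. Mitf, the master regulator of melanocytes, fell from a mean log2 CPM of 7.85 ± 0.16 in melan-a to 0.20 ± 0.81 in 4C and -0.09 ± 1.06 in 4C11-, and stood at 7.12 ± 1.42 in 4C11+. Sox10, the neural crest factor upstream of it, had 0 or 1 reads in 4C, 3 to 8 in 4C11- and a mean of 8.01 ± 0.33 in 4C11+. In 4C and 4C11-, 6 and 7 of the 20 genes had 3 reads or fewer in all libraries of the line, and the summed level of the 20 genes was at most 1467 CPM in the libraries of both lines, against at least 5786 CPM in those of melan-a and 4C11+. Others of the list were still expressed there, such as Pax3 (mean log2 CPM 5.50 and 5.30) and Gpnmb (9.40 and 7.82). A gene at 3 reads or fewer in both 4C and 4C11- had to differ between the lines to have a row. The count of melanocyte genes is therefore a description and lends no support of its own.

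Among the fibroblast markers Pdgfra, Col1a1 and Col3a1 were higher in the mesenchymal-like lines, and Pi16 did not pass the test (adjusted p = 0.0694). Of 6 listed (Pdgfra, Dcn, Lum, Pi16, Col1a1 and Col3a1) 4 have a row, and their summed CPM was 2027 to 2215 in 4C and 1663 to 2000 in 4C11-, against 18.1 to 86.1 in melan-a and 8.49 to 9.95 in 4C11+. Col1a1 accounts for most of it. Pi16 and Col3a1 were at 3 reads or fewer in all libraries of melan-a and 4C11+, so they had to differ between the lines to have a row. In 4C11- the mean log2 CPM of Pi16 was -1.38, and its libraries overlapped those of melan-a. Endothelial (2 of 5), leukocyte (3 of 7) and keratinocyte (1 of 5) markers had sums of at most 178, 96.8 and 2.80 CPM, the first in 4C11-, where Cdh5, VE-cadherin, had a mean log2 CPM of 6.90. Schwann cell markers (5 of 6) summed to 285 to 866 CPM in melan-a and 501 to 765 in 4C11+, against 93.3 to 126 in 4C and 52.6 to 87.3 in 4C11-. Not all of them followed the sum. Against melan-a, Pmp22 was higher by at least 0.97 in 4C (adjusted p = 0.0436) and 2.81 in 4C11- (adjusted p = 0.00214). Between mesenchymal-like and epithelial lines Pmp22 and Ngfr did not pass the test (adjusted p = 0.36 and 0.0755). The part of other cell types in the result was not tested.

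Twist proteins need E proteins as partners, and Id proteins compete for the same partners. The E proteins Tcf3, Tcf4 and Tcf12 were present in every line (lowest line mean 5.12, Tcf4 in 4C11+) and did not pass the test, with differences of 0.22, 0.58 and -0.65. Id1 was 3.39 ± 0.35 (SE) higher in the mesenchymal-like lines, Id3 1.17 ± 0.39 and Id4 3.93 ± 0.45, whereas Id2 was 1.22 ± 0.31 lower. The groups overlapped for Id3 and Id2: the mean log2 CPM of Id3 was 5.58 in 4C and 5.64 in melan-a, and that of Id2 5.36 in 4C11- and 5.60 in melan-a. Of 7 genes of the list 3 were higher and 1 lower, beside 14.3% of all genes called higher and 15.3% lower. Id4 had 0 reads in all of 4C11+ and a mean log2 CPM of 3.90 ± 0.86 in 4C11- (SD, n = 3), and its difference was 2.67 with 4C11+ set to 3 reads.

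TGF-beta signalling is the best known inducer of Snai1 and the Zeb genes. Of 15 listed ligands, receptors and SMADs 14 have a row, and 8 were higher in the mesenchymal-like lines, 0 lower and 6 not called, with a median of 0.96, beside 14.3% of all genes called higher and 15.3% lower. Tgfb3, a ligand, was 2.25 ± 0.30 (SE) higher and Tgfb1 1.97 ± 0.59, the latter with melan-a libraries at log2 CPM 0.22 and 4.33. The difference of Tgfb1 was 2.95 without melan-a replicate 2 and 4C11- replicate 1 and 0.94 without melan-a replicate 3. The receptor genes Tgfbr1 and Tgfbr2 did not pass the test, at -0.98 ± 0.36 (adjusted p = 0.0602) and 0.26 ± 0.20. The coreceptor gene Tgfbr3 was 1.54 ± 0.45 higher. Smad3, which carries the signal to the nucleus, was 1.35 ± 0.20 higher, and the inhibitory Smad6, Smad7 and Skil were 1.43, 1.44 and 1.19 higher. The groups overlapped for Tgfbr3, Smad7 and Skil. Against melan-a, Tgfbr3 and Smad6 were called in neither 4C nor 4C11-. Smad7 was not called in 4C (adjusted p = 0.0814), nor Skil in 4C11- (adjusted p = 0.778).

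Among 20 of 25 other transcription factors with a role in EMT, 13 were higher, 3 lower and 4 not called (14.3% and 15.3% of all genes were called higher and lower), with a median of 1.27. Foxf2, a forkhead factor of mesenchyme, had the pattern of Twist2, with 0 reads in melan-a and 4C11+ and 96 to 357 in the mesenchymal-like libraries, a difference of at least 4.85. Like Twist2, Foxf2 had to differ between the lines to have a row. Its likeness to Twist2 and the count of this list are therefore descriptions and lend no support of their own. Sox9 was 4.06 ± 0.45 (SE) higher, Tbx3 5.05 ± 0.53 (3.80 with 4C11+, where it had 0 reads, set to 3) and Yap1 0.83 ± 0.16. Yap1 was lowest in 4C11+ (mean log2 CPM 7.65, against 8.79 in melan-a), and was not called in 4C or 4C11- against melan-a (adjusted p = 0.251 and 0.88). Tbx2, the paralog of Tbx3, was 3.59 ± 0.46 lower. In 4C11- against 4C, the 1 gene of this list called was Klf8, a Krüppel-like factor (adjusted p = 0.00588). It was chosen here after its value was seen. Klf8 was higher by at least 1.54 (at least 2.90-fold), with 4C at the floor and a mean log2 CPM of 0.28 in 4C11-.

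All 25 listed corepressors and chromatin enzymes that EMT factors recruit have a row. Of these 1 was higher, 4 lower and 20 not called, beside 29.7% of all genes called, with a median of 0.03. Ctbp1 and Ctbp2, the classical partners of the Zeb proteins, differed by -0.27 ± 0.17 (SE) and 0.14 ± 0.21. Rbbp7, a histone chaperone, was 1.44 ± 0.13 higher. Rcor1 was 0.83 ± 0.18 lower, Kat2b 1.01 ± 0.25 and Hdac2 0.67 ± 0.22.

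Of 25 kinases and ubiquitin pathway genes known to act on the stability of EMT factors, 23 have a row, 4 were higher, 1 lower and 18 not called, beside 29.7% of all genes called, with a median of -0.06. Pak1, a kinase that phosphorylates Snai1, had 0 reads in every epithelial library and 28 to 99 in the mesenchymal-like ones, a difference of at least 3.01. Pak1 therefore had to differ between the lines to have a row, and its direction lends no support of its own. Siah1b, a ubiquitin ligase, was 1.02 ± 0.32 (SE) higher and the kinase Prkd2 0.89 ± 0.28. Mdm2, the ubiquitin ligase best known for p53, was 1.25 ± 0.17 lower, with line means between 5.52 and 5.66 in the first 3 lines and 8.02 in 4C11+. The ligase genes Fbxl14 and Fbxw7 did not pass the test (-0.57 ± 0.22 and 0.03 ± 0.21).

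**Figure D5:**
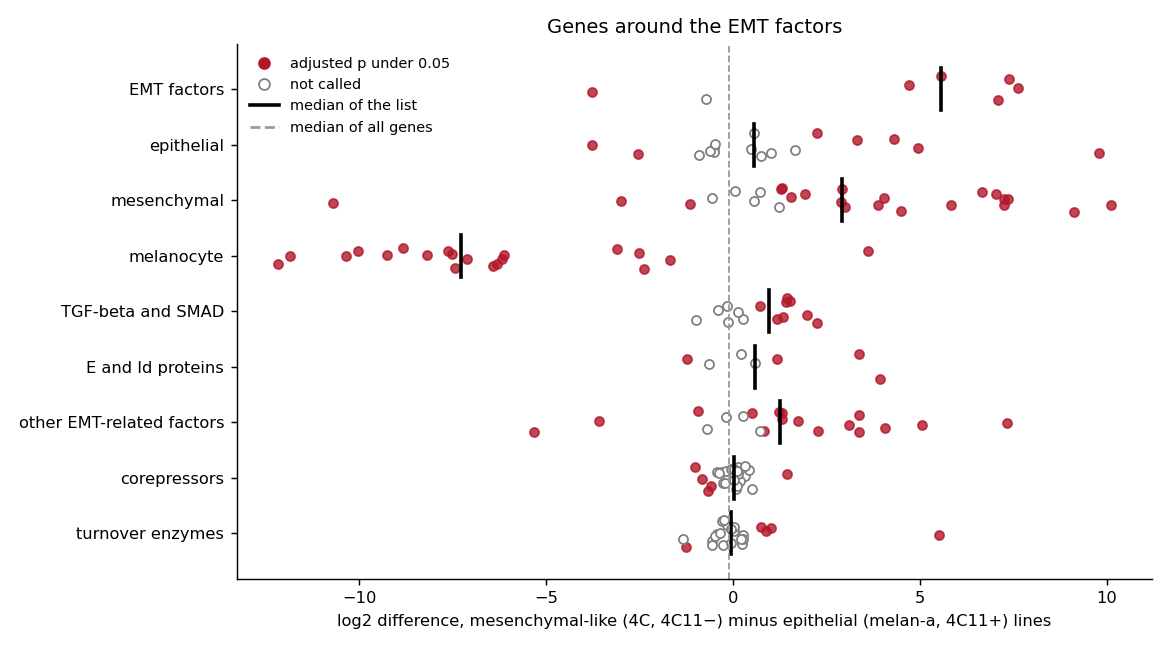
Log2 difference between mesenchymal-like (4C, 4C11-) and epithelial (melan-a, 4C11+) lines for each gene of the EMT factors and of 8 gene lists (horizontal axis), red where the adjusted p is under 0.05 and open otherwise, with the median of each list as a black bar and that of all genes as a dashed line at -0.09. The melanocyte genes lie to the left (median -7.26), most mesenchymal genes to the right (median 2.91), and the corepressors (0.03) and turnover genes (-0.06) around the line of all genes.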

How the data were processed

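The authors trimmed the reads with Trimmomatic, aligned them to GRCm38 with STAR, assigned them to Ensembl genes with Rsubread, removed genes that did not reach 1 CPM in 4 or more libraries and transformed the rest with voom; tool versions are not given in the sources used here. The deposited values are log2 CPM. All libraries share the same highest value (13.7) and nearly the same median, as after quantile normalization, a step the Methods do not name. Symbols and coordinates were taken from the GRCm38 annotation, and 24 genes matched no symbol.

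The values were used as deposited. Limma 3.58.1 (R 4.3.3) was fitted to all 11 libraries with a mean for each of the 4 lines and a variance trend, two-sided, with Benjamini-Hochberg adjustment over 14272 genes and a threshold of 0.05. Lines of a joined group were weighted equally. All p-values are from limma. Read numbers follow from the order of the distinct low values in a library, which holds while nearly every read number occurs. Promoter sequences are RefSeq's. Other values were computed in Python 3.11.15 with pandas 2.3.3 and NumPy 2.4.6.

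The members and gene lists were chosen with earlier results of these data known. Of each list, the text names fixed genes and up to 4 called genes with the largest difference between mesenchymal-like and epithelial lines, and for each factor the 3 genes with the highest correlation; Postn, Lef1 and Klf8, and the markers of other cell types, are named beside this rule, and some genes are not reported here. The intervals cover the spread between libraries, whose number limits the precision.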

Additional observations from a re-analysis of the deposited data

Results flagged for a closer look

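The value of Zeb2 in the library 4C11- replicate 1, log2 CPM 3.88, stood apart from the other 5 libraries of the mesenchymal-like lines, with a gap to the nearest of 0.659 of their whole range against a critical value of 0.625 for 6 samples. These 6 libraries come from 2 lines. Of 7 groups checked 1 was flagged, and chance flags about 1 in 20.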

How the results depend on the processing

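Each member's difference was recomputed with a further quantile normalization, equal library medians, a minimum mean of 1, values raised to that of 3 reads, the replicate number as a block, other variance models, library weights, the compared lines alone, and without each library, and, chosen after seeing the data, without melan-a replicate 2 and 4C11- replicate 1 together and with transcript length centred. Of 970 values 947 kept their direction and side of the threshold, 8 lost and 7 gained the call, and 8, all of Zeb2 and none called, reversed. Of 31 called differences 27 kept the call in every setting.

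The reversed differences of Zeb2 were, in 4C minus melan-a, -0.10 without melan-a replicate 2 (alone and together with 4C11- replicate 1) and -0.10 without 4C replicate 3, in a range up to 0.36 with a library left out. In 4C11+ minus 4C they were -0.32 with library weights, -0.12 without 4C replicate 1 and -0.56 without 4C11+ replicate 3, in a range up to 0.62. In 4C11+ minus melan-a they were -0.16 with library weights and -0.44 without 4C11+ replicate 3, in a range up to 0.74. The cause was not tested.

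The number of factors called in 4C11+ minus melan-a was 1 in place of 2 with a minimum mean of 1, which leaves fewer genes, and with values raised to that of 3 reads, and 1 to 2 with a library left out. In 4C11- minus 4C it was 1 in place of 0 with values raised to that of 3 reads and with library weights, and 0 to 1 with a library left out. Of the corepressors 3 in place of 5 were called without the variance trend, 8 without melan-a replicate 2 and 4C11- replicate 1, and 3 to 7 with a library left out. Of the epithelial genes 4 in place of 7 were called with a minimum mean of 1. Of the turnover genes 3 to 6 in place of 5 were called with a library left out. The cause was not tested.

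Replicate numbers recur between lines, but no label says that they mark a shared batch, and the deviations of 15 same-numbered pairs correlated between -0.226 and 0.388, so the numbers were not taken as pairs. With the replicate block 6 of the 7 factors were called between mesenchymal-like and epithelial lines, as without it, and 6 in place of 5 in 4C11+ minus 4C11-, where Zeb2, higher by 1.54, passed the test (adjusted p = 0.0328). With the compared lines alone, Snai2 in 4C11- minus melan-a did not pass (adjusted p = 0.0877).

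Across all genes, 93 to 320 genes were called in 4C11- minus 4C with a library left out, 125 with a minimum mean of 1, 437 with library weights, 143 with the compared lines alone and 388 without both libraries, in place of 238. In 4C11+ minus melan-a the lowest count was 1089 in place of 2270, in 4C11- minus melan-a it was 843 with the compared lines alone and 1182 with library weights in place of 1940, and in 4C11+ minus 4C library weights gave 10651 in place of 4528. Depth limits Cdh1, Twist1 and Snai2, which lie near the floor of 3 reads in several libraries.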
